A study of Homo sapiens with 10 samples.

Results

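Polysomal RNA was compared with subpolysomal RNA in Meg01 cells, a human megakaryoblastic leukaemia line, that carried the control hairpin shc002. The comparison used the 5 arrays of control hairpin cells among the 10 arrays of the series: 3 polysomal arrays (P2, P4 and P5), pooled from gradient fractions 9 to 17, and 2 subpolysomal arrays (P1 and P3), pooled from fractions 1 to 8. All 5 were taken by their labels, not by a measured value. The other 5 arrays came from cells carrying sh95, a hairpin against ATXN2, with the same 3 polysomal and 2 subpolysomal P numbers, and they were used to estimate the spread and as a second set of cells.

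All cells, control cells included, had been transduced with a lentivirus at a multiplicity of infection of 10 and grown in RPMI medium with 10% serum. GFP-positive cells were sorted 48 hours after transduction, and their lysates were layered on gradients of 7 to 46% sucrose in 3 independent experiments, per the labels. Meg01 is 1 leukaemia line, the control hairpin is 1 construct, and no untransduced cells were analysed here. No P number occurred in both pools, so P number and pool cannot be told apart, and the labels do not say which P numbers came from the same experiment.

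In a sucrose gradient, messenger RNAs that carry several ribosomes sediment toward the bottom, while free messenger particles, ribosomal subunits and RNAs with at most a single ribosome stay near the top. The pool in which a transcript is rich therefore depends on how often ribosomes start on it and how much room its reading frame gives them. Messenger RNAs of ribosomal proteins and elongation factors begin with a terminal oligopyrimidine (TOP) tract, a C followed by a run of C and T, through which mTOR signalling and LARP1 control their movement between free particles and polysomes. Small nucleolar RNA (snoRNA) host genes carry snoRNAs in their introns; several of their spliced products also have TOP starts but short or no reading frames.

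The transcription starts of 14 genes described here are printed as examples from both directions. They do not show how often such a start goes with a direction. No ribosomal protein or elongation factor message that read higher is among them. Each line gives 10 bases before and 20 bases after the annotated RefSeq start on GRCh38.p14, 5′ to 3′ on the transcribed strand, and capitals mark the unbroken run of C and T that holds the start base (none where that base is G or A). The first 9 belong to messages and host transcripts that read lower in polysomal RNA, of which RPL13, DANCR and EPB41L4A-AS1 lack a C followed by 4 bases of C or T at the start. The last 5 belong to messages that read higher, of which CCDC32 has such a start.
RPL22 (chr1:6199576-6199605, minus strand): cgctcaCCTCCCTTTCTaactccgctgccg
RPS23 (chr5:82278335-82278364, minus strand): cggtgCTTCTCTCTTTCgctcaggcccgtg
RPL13 (chr16:89560647-89560676, plus strand): tgctatcaTCCCagagtgcattgcggggcc
EEF2 (chr19:3985444-3985473, minus strand): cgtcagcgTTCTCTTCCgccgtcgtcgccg
EIF4B (chr12:53006446-53006475, plus strand): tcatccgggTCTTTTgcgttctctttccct
SNHG32 (chr6:31834906-31834935, plus strand): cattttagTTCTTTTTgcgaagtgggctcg
SNHG5 (chr6:85678714-85678743, minus strand): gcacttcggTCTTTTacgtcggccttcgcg
DANCR (chr4:52712384-52712413, plus strand): tgcgcgccccgcccttgcccagagtcttcc
EPB41L4A-AS1 (chr5:112160516-112160545, plus strand): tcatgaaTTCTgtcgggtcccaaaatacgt
PSMA4 (chr15:78540395-78540424, plus strand): tcccgCTCCCCCCgccccaacccagcggtt
PSMD1 (chr2:231056857-231056886, plus strand): ggcgggcggggtcctggcgagaagcgagcc
LRP5 (chr11:68312581-68312610, plus strand): cctcctccccgtcgtcctggtccgcggcgc
CCDC32 (chr15:40565023-40565052, minus strand): gggactccgCCCCTCCCgatttcctccggg
SRRT (chr7:100875093-100875122, plus strand): ccgcgagggtggagctttgtgcctcggagg

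Of 47323 probes, 26911 (56.9%) exceeded background on at least 2 of the 10 arrays, and they stood for 13901 named genes, 8234 of them above background on all 5 control arrays. Values are log2 normalized intensities. They have a floor near 7.5, the level of unbound probes, so differences of dim genes are understated. A difference is polysomal minus subpolysomal and is relative to all other probes, since the arrays were scaled to one distribution. It says nothing of the share of a transcript that was on polysomes. The RNA came from many cells, so a change in the number of cells holding a transcript and a change per cell cannot be told apart.

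The control arrays also differed in a way the pools do not account for. The first principal component of the 10 arrays (52.4% of the variance) put control P2 at -59.86 and P1 at -29.99, against 39.55, 23.50 and 53.87 for control P4, P5 and P3. The second (21.9%) put the polysomal arrays P2, P4 and P5 at 18.39, 29.59 and 15.45, above the subpolysomal arrays P1 and P3 at -42.69 and -24.50. The polysomal array P2 correlated at r = 0.82 with the subpolysomal array P1 across genes, above its 0.74 with P4 and 0.77 with P5 of its own pool. P1 itself correlated more with P5, at 0.84, and the knockdown array P5 lay at -18.36 on the first component. The value of each array is given for this reason. Gene groups are also given within P1 and P2 and within P3, P4 and P5. That split was chosen after seeing the data, is no batch named by the labels, and does not hold for P5 throughout.

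Limma, fitted over the 10 arrays with Benjamini-Hochberg adjustment over all kept probes, called 32 probes in control cells at an adjusted p under 0.05. Of these, 3 rose in polysomal RNA (0.0111% of probes tested) and 29 fell (0.108%). Taking the brightest probe of each gene, 3 genes rose (0.0216% of 13901) and 13 fell (0.0935%). Of the 32 probes, 10 had no gene name in the annotation used here. At an unadjusted p under 0.05 there were 1514 probes. Control and knockdown arrays share P numbers, and with P number as a random block 15 probes were called, 2 higher and 13 lower. Of the 15 called genes plotted here, 8 were also called with the block: LRP5, SELENOW, TLE5, RNF11, ZNF358, SNORD84 and RNPEPL1 were not, at limma adjusted p between 0.0522 and 0.138. The adjusted p values given for single genes are those without the block. The calls are sensitive to single arrays: with P1, P3 or P5 left out in turn 1 probe was called, without P2 there were 2, without P4 there were 4, and the 5 control arrays fitted alone gave 0 calls (1186 probes at an unadjusted p under 0.05), as did a trended robust prior (1287 probes).

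The 3 genes that rose were LRP5, a Wnt coreceptor, CCDC32, a factor in the assembly of the clathrin adaptor AP2, and SRRT, a partner of the nuclear cap-binding complex. LRP5 read 9.66, 9.74 and 9.38 in the polysomal arrays P2, P4 and P5, against 8.66 and 8.52 in the subpolysomal arrays P1 and P3, a difference of 1.00 ± 0.12 (SE; limma adjusted p = 0.0476). CCDC32 read 10.16, 10.14 and 9.91 in polysomal RNA, against 9.00 and 9.17 in subpolysomal RNA (difference 0.99 ± 0.09, SE; limma adjusted p = 0.0313). SRRT read 10.62, 10.50 and 10.67 in polysomal RNA, against 9.84 on both subpolysomal arrays (difference 0.76 ± 0.06, SE; limma adjusted p = 0.0186). Every polysomal array stood above both subpolysomal arrays for all 3 genes. Dimmer probes of LRP5 and CCDC32 gave differences of 0.16 and 0.33.

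Among the 13 genes that fell on their brightest probe, SELENOW and TLE5 had the largest differences. SELENOW, a small selenoprotein whose message recodes a UGA stop codon as selenocysteine, read 8.21, 8.42 and 8.47 in polysomal RNA, against 10.80 and 10.23 in subpolysomal RNA (difference -2.15 ± 0.25, SE; limma adjusted p = 0.0483). TLE5, a short member of the Groucho corepressor family, read 9.45, 9.20 and 9.11 in polysomal RNA, against 11.17 and 11.47 in subpolysomal RNA (difference -2.07 ± 0.20, SE; limma adjusted p = 0.0342); its dimmer probe gave -0.52. OIP5-AS1, a cytoplasmic long noncoding RNA also called cyrano, read 7.93, 7.94 and 7.82 in polysomal RNA, against 10.16 and 9.49 in subpolysomal RNA (difference -1.93 ± 0.21, SE; limma adjusted p = 0.0427). For these 3 genes the polysomal arrays lay close together and well below both subpolysomal arrays.

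FAAP20, a subunit of the Fanconi anaemia core complex, fell by 1.68 ± 0.12 (SE; limma adjusted p = 0.0168), with 8.35, 8.21 and 8.18 in polysomal RNA against 9.83 and 10.03 in subpolysomal RNA. NTAN1, an amidase that acts on N-terminal asparagine in the N-degron pathway, fell by 1.54, and RNF11, a small RING finger protein, fell by 1.38. ZNF358, a zinc finger protein, fell by 1.37, and FAM219B fell by 1.21. ADA, adenosine deaminase, read 8.54, 8.50 and 8.51 in polysomal RNA, against 9.48 on both subpolysomal arrays, and fell by 0.96 ± 0.09 (SE; limma adjusted p = 0.0287). U2AF1L4, a paralogue of the splicing factor U2AF1, fell by 0.60, RNPEPL1 by 0.50 and TNFSF12, the cytokine TWEAK, by 0.48. Dimmer probes of FAAP20, U2AF1L4 and TNFSF12 gave -0.81, -0.16 and -0.02. SNORD84, a C/D box snoRNA, was not above background on any polysomal array, and its subpolysomal level was at least 1.43-fold higher. The plot of called genes shows the arrays of each pool apart for every gene in it.

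**Figure D1:**
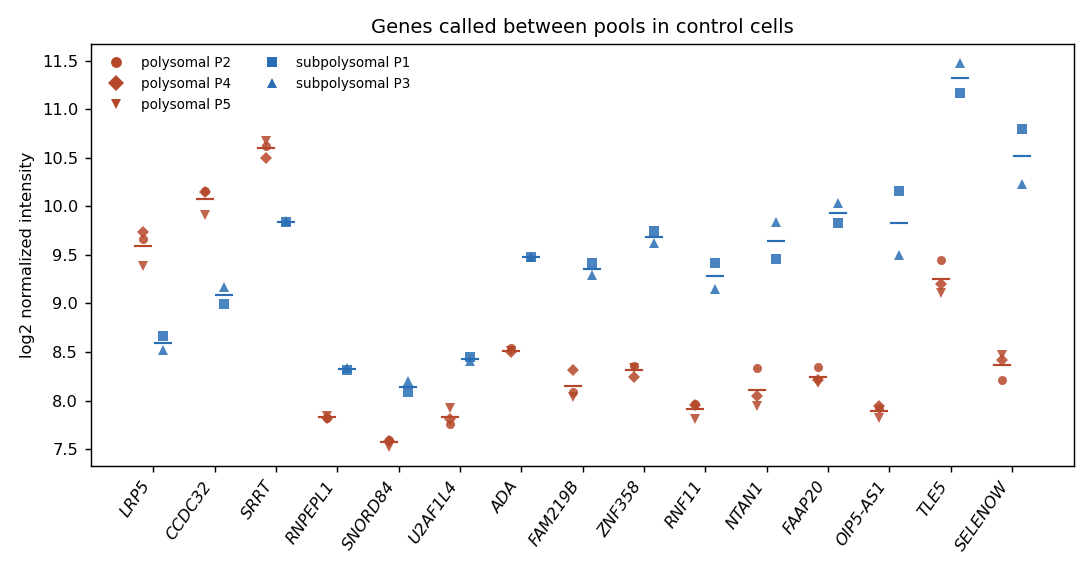
Log2 normalized intensity of 15 of the 16 genes called by limma in control cells (TNFSF12 fell outside the naming limit of 12 per direction), by array: red, polysomal P2, P4 and P5; blue, subpolysomal P1 and P3; horizontal lines, group means. LRP5, CCDC32 and SRRT stand higher in polysomal RNA and the other 12 lower, with no overlap between pools.

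A few called probes belonged to genes whose brightest probe was not called. RPS29, a protein of the small ribosomal subunit, fell by 2.38 on such a probe (limma adjusted p = 0.0168), CNOT7, a deadenylase of the CCR4-NOT complex, fell by 1.35, APH1A, a gamma-secretase subunit, fell by 0.87, and FAM120AOS fell by 0.64. IDS, a lysosomal sulfatase, fell by 1.28 on such a probe, while its brightest probe gave -1.88 and lay just outside the threshold (limma adjusted p = 0.0501). NME4, a mitochondrial nucleoside diphosphate kinase, lay at the same adjusted p with a larger difference of -2.83: it read 9.18, 8.80 and 9.08 in polysomal RNA, against 12.29 and 11.41 in subpolysomal RNA.

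With so few calls, gene groups are described by counts of genes whose 3 polysomal arrays all lay on one side of both subpolysomal arrays. Over all 13901 genes, 9.24% were parted in this way with polysomal RNA higher and 9.2% with it lower. Among the 8234 genes above background on all 5 control arrays the shares were 10.6% and 8.7%. Regardless of overlap, 54.4% of all genes read higher in polysomal RNA and 45.6% lower, and of those 8234 genes 58% read higher and 42% lower, so a count of members that read higher near these shares is no result about the group. The median difference was 0.01 over all genes and 0.06 over those 8234, of which 268 read more than 1 log2 unit higher in polysomal RNA and 292 more than 1 unit lower. The plot of gene groups gives the medians in order.

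**Figure D2:**
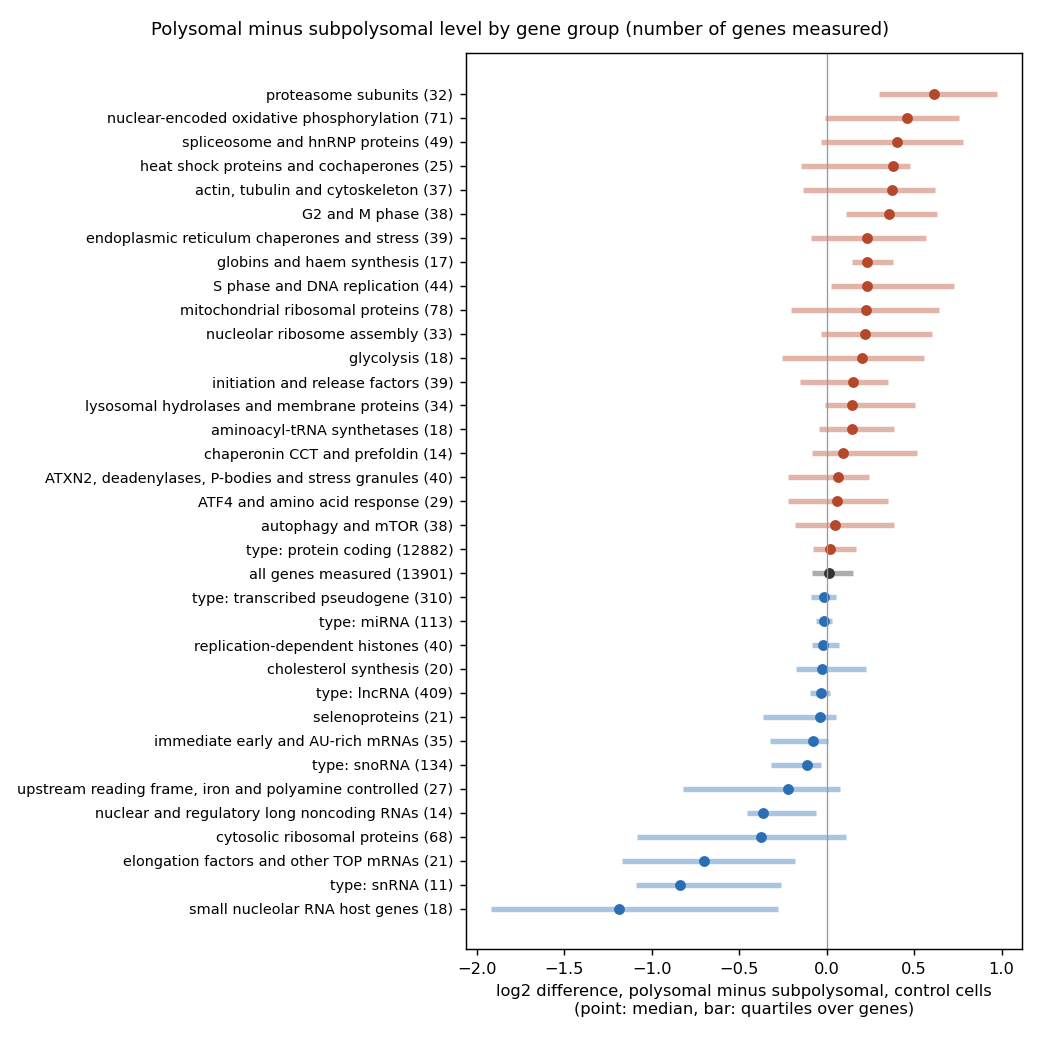
Log2 difference, polysomal minus subpolysomal, in control cells for each gene group and RefSeq gene type (number of genes measured in brackets): points are medians and bars the quartiles over genes. Proteasome subunits have the highest median (0.61) and snoRNA host genes the lowest (-1.19), while all 13901 genes centre on 0.01.

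Host genes of snoRNAs had the lowest median of the groups. Of 18 measured, 17 read lower in polysomal RNA and 1 higher, none was called on its brightest probe, and 10 were parted with polysomal RNA lower and 0 with it higher. Their median difference was -1.19. Of the 11 above background on all 5 control arrays, 11 read lower, and 7 were parted with polysomal RNA lower and 0 with it higher. DANCR, a host of snoRNAs with no long reading frame, read 10.18, 8.22 and 8.93 in polysomal RNA, against 13.06 and 10.81 in subpolysomal RNA (difference -2.83 ± 0.98, SE; limma adjusted p = 0.693). EPB41L4A-AS1 read 9.78, 10.62 and 9.17 in polysomal RNA, against 12.36 and 12.32 in subpolysomal RNA (difference -2.48 ± 0.38, SE; limma adjusted p = 0.125). Both were named from the parted members of the group, and their spread within the pools was wide.

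SNHG32, whose TOP start is printed above, read 9.12, 11.62 and 10.43 in polysomal RNA, against 13.01 and 12.67 in subpolysomal RNA (difference -2.45), although its dimmer probe gave -0.28. SNHG5 read 10.06, 10.66 and 9.65 in polysomal RNA, against 11.49 and 12.94 in subpolysomal RNA (difference -2.09), and its other probe gave -1.27. SNHG8, SNHG15 and SNHG1 were also parted, with differences of -1.98, -1.72 and -1.51. ZFAS1, a snoRNA host antisense to ZNFX1, read 9.40, 10.63 and 9.19 in polysomal RNA, against 9.45 and 12.32 in subpolysomal RNA, so its pools overlapped. GAS5, a well studied TOP host gene, read 7.53 to 7.58 on the polysomal arrays and 7.53 to 7.54 on the subpolysomal arrays, at the background floor, and gave no information. A dimmer probe of SNHG7 fell by 0.45 (limma adjusted p = 0.0427) with no polysomal array above background, so its subpolysomal level was at least 1.34-fold higher.

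A level for a group on 1 array is the median over its genes of each gene's value minus that gene's mean over the 5 control arrays. For the snoRNA host genes this level was -0.15, -0.14 and -0.67 in the polysomal arrays P2, P4 and P5, against 0.34 and 0.31 in the subpolysomal arrays P1 and P3. The pools did not overlap, and the difference was -0.49 between P2 and P1 and -0.71 between the mean of P4 and P5 and P3. Left out in turn, P1 and P3 each weakened the median difference, to -0.73 and -0.62, and without P3, P4 and P5 it was -0.43.

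Other noncoding RNA read lower in polysomal RNA as well. Of 14 nuclear and regulatory long noncoding RNAs measured from a list of 37, 12 read lower and 2 higher, 6 were parted with polysomal RNA lower and 0 with it higher, and OIP5-AS1 was called; the median was -0.37, against -0.23 under both other scalings and -0.16, -0.23 and -0.15 without P1, without P4 and without P1 and P2. The long noncoding RNAs CYTOR and MEG3 were parted at -0.44 and -0.43, with -0.07 and -0.02 on their other probes. TUG1, a chromatin-associated RNA, read 10.91, 9.74 and 10.56 in polysomal RNA, against 11.56 and 10.16 in subpolysomal RNA, with overlap. MALAT1, a nuclear speckle RNA, read 7.46 to 7.63 in polysomal RNA and 7.55 to 7.68 in subpolysomal RNA, near the floor. Over all 409 genes that RefSeq types as lncRNA, 279 read lower and 130 higher, and 76 were parted with polysomal RNA lower against 16 with it higher. Most of them were dim: of the 73 above background on all 5 control arrays, 56 read lower and 17 higher, with a median of -0.13 (-0.073 without P3 and -0.063 without P4). Of these 73, 18 were parted with polysomal RNA lower and 1 with it higher.

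Of 134 snoRNAs, 115 read lower and 19 higher in polysomal RNA, and 54 were parted with polysomal RNA lower against 3 with it higher. Most were dim, and a dim RNA can be kept through its subpolysomal arrays alone, which favours lower readings in these counts. Of the 18 above background on all 5 control arrays, 17 read lower and 1 higher. Of these 18, 10 were parted with polysomal RNA lower and 1 with it higher. The signal of a snoRNA probe can come from a mature snoRNA or from its host's unspliced RNA. SNORA61 read 8.20, 8.27 and 7.69 in polysomal RNA, against 9.13 and 9.62 in subpolysomal RNA (difference -1.32), and SNORD104 read 7.68, 7.71 and 7.57, against 8.64 and 9.12 (difference -1.22). The 18 snoRNAs above background on all 5 control arrays had a median of -0.38 (-0.18 without P3 and -0.22 without P3, P4 and P5), and their level was -0.09, -0.05 and -0.17 in P2, P4 and P5, against 0.11 and 0.19 in P1 and P3, with no overlap. Of 11 small nuclear RNAs, 10 read lower and 1 higher, with a median of -0.84. Only 2 of them were above background on all 5 control arrays, and these 2 were parted with polysomal RNA lower. RNU6-1, the U6 RNA of the spliceosome, read 8.33, 8.38 and 8.38 in polysomal RNA, against 9.45 and 9.47 in subpolysomal RNA (difference -1.10), and RN7SK, the RNA that holds P-TEFb inactive, gave -1.31 (other probe -0.65). U1 genes (RNU1-1, RNU1-3 and the RNVU1 variants) are near-identical copies and their probes cannot be told apart with certainty. The 113 miRNA genes and 310 transcribed pseudogenes had medians of -0.02 each, but 7 and 107 of them were above background on all 5 control arrays, with medians of -0.04 in both sets.

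**Figure D3:**
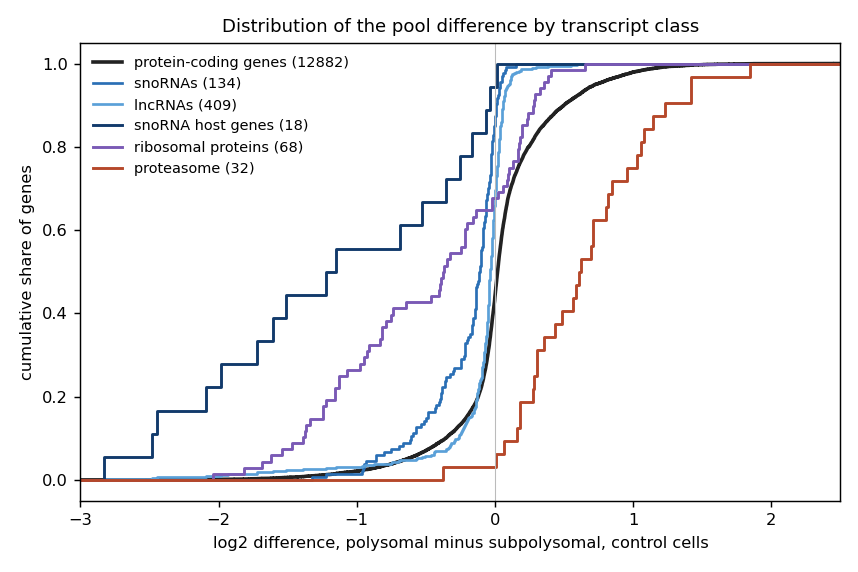
Cumulative share of genes against the log2 difference, polysomal minus subpolysomal, in control cells. The curves of snoRNA host genes, ribosomal proteins and snoRNAs lie left of that of 12882 protein-coding genes, and the proteasome curve lies right of it. The lncRNA curve lies close to 0. All measured genes are drawn, and many noncoding ones were dim, which can favour lower readings. Above background on all 5 control arrays were 18 of 134 snoRNAs, 11 of 18 host genes and 73 of 409 lncRNAs.

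Messenger RNAs of ribosomal proteins and of elongation factors and other TOP genes had medians below 0, with large differences between arrays. Those of the remaining initiation and release factors, given below, did not. Of 68 cytosolic ribosomal proteins measured, 46 read lower and 22 higher, none was called on its brightest probe, and 18 were parted with polysomal RNA lower against 4 with it higher; the median was -0.37. RPL22 read 9.65, 10.05 and 10.78 in polysomal RNA, against 12.90 and 11.51 in subpolysomal RNA (difference -2.04 ± 0.68, SE; limma adjusted p = 0.668). RPL23A read 8.85, 8.81 and 9.78 in polysomal RNA, against 11.20 and 10.72 in subpolysomal RNA (difference -1.81). RPS23 read 10.40, 8.57 and 10.42 in polysomal RNA, against 12.32 and 10.51 in subpolysomal RNA (difference -1.62). All 3 were named from the parted members of the group, and RPS23 was parted only narrowly, since P3 lay just above P2 and P5.

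Not all ribosomal protein messages went this way. RPS16 read 14.16, 14.11 and 14.08 in polysomal RNA, against 13.76 and 13.67 in subpolysomal RNA (difference 0.40), and RPLP2 and RPL11 gave 0.36 and 0.29. These 3 were parted with polysomal RNA higher, and they stood near the top of the scale. RPL13 gave -1.68 on its brightest probe and 0.01 on another. Ribosomal proteins have many processed pseudogenes, so a probe may also read a copy. RPL38 ran from 8.63 to 13.96 over the polysomal arrays and from 9.36 to 14.19 over the subpolysomal arrays, with P2 and P1 the low arrays of their pools.

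The ribosomal protein level per array was -0.82, 0.13 and 0.14 in the polysomal arrays P2, P4 and P5, against 0.02 and 0.78 in the subpolysomal arrays P1 and P3, and the pools overlapped. It was lower in polysomal RNA within both sets, by -0.84 between P2 and P1 and by -0.64 between the mean of P4 and P5 and P3. The group median depended on P2: without it the median difference was 0.027, without P1 it was -1.13, without P3 it was -0.10, without P4 or P5 it was -0.66 or -0.70, and values without quantile scaling gave -0.69.

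Elongation factors and other known TOP messages had a lower median. Of 21 measured, 17 read lower and 4 higher in polysomal RNA, and 6 were parted with polysomal RNA lower against 0 with it higher; the median was -0.70. EIF4B, a cofactor of the helicase eIF4A, read 9.65, 10.47 and 9.68 in polysomal RNA, against 12.01 and 11.83 in subpolysomal RNA (difference -1.99 ± 0.28, SE; limma adjusted p = 0.108). PABPC1, the main cytoplasmic poly(A)-binding protein, read 11.71, 12.91 and 12.27 in polysomal RNA, against 14.02 and 14.11 in subpolysomal RNA (difference -1.77), and its other probe gave -1.81. EEF2, the translocase of elongation, read 10.09, 13.02 and 12.49 in polysomal RNA, against 13.57 and 13.35 in subpolysomal RNA (difference -1.60), with P2 far below the other polysomal arrays. EIF3H was parted at -1.33.

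EEF1A1, the factor that delivers aminoacyl-tRNA, read 10.62, 14.38 and 14.29 in polysomal RNA, against 14.35 and 14.13 in subpolysomal RNA: P2 alone was low, and P4 and P5 lay level with the subpolysomal arrays. TPT1, EEF1B2 and NACA, which also have TOP messages, gave differences of 0.13, 0.01 and 0.13, although the other probe of TPT1 gave -1.32 and those of EEF1B2 -0.56 to -0.05. The group level was -0.94, -0.05 and 0.00 in P2, P4 and P5, against 0.15 and 0.59 in P1 and P3, with no overlap. The median difference was -0.24 without P2 and -1.10 without P1. Of 39 remaining initiation and release factors 24 read higher and 15 lower, 3 were parted higher and 5 lower, and the median was 0.15, or -0.017 without P5. EIF4A3, a member of that list and the helicase of the exon junction complex, read 12.80, 12.25 and 12.04 in polysomal RNA, against 10.91 and 10.08 in subpolysomal RNA (difference 1.87 ± 0.37, SE; limma adjusted p = 0.237). EIF2A, EIF5A, whose hypusine form helps ribosomes past difficult stretches, and EIF3M, a subunit of eIF3, were parted the other way at -1.22, -1.01 and -0.91.

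The annotated start was then read for every gene with a RefSeq promoter, as a C at the first transcribed base followed directly by at least 4 bases that are each C or T, at that 1 position and on the transcribed strand only. Of 27305 promoters in the table, 1104 (4.04%) held it. It was held by 41 of 58 ribosomal protein genes (70.7%), 10 of 15 elongation factor and TOP genes (66.7%), 5 of 15 snoRNA host genes (33.3%) and 0 of 28 proteasome genes. Among 6722 other protein-coding genes above background on all 5 control arrays, 354 (5.27%) held it; 154 of these read higher and 200 lower, with a median of -0.07, and 18 were parted with polysomal RNA higher and 55 with it lower. The other 6368 had a median of 0.08, with 709 parted higher and 491 lower. The level of the 354 genes with such a start was -0.03, -0.07 and -0.07 in P2, P4 and P5, against 0.05 and 0.02 in P1 and P3, with no overlap, while the level of the genes without it overlapped between the pools. In knockdown cells the level of the 354 genes overlapped between the pools as well. There 37 of them were parted higher and 55 lower, against 1101 and 466 of the 6368 others. CCDC32, which rose, also holds such a start. Within the ribosomal proteins, the median was -0.25 for the 41 genes with the start and -0.38 for the others. Of those 41 genes, 17 read higher and 24 lower. Of the 10 elongation factor and TOP genes with the start, 3 read higher and 7 lower. The annotated start need not be the one used in Meg01 cells.

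Messages known for upstream reading frames or for control by iron or polyamines read unevenly: of 27 measured, 16 read lower and 11 higher, and 6 were parted with polysomal RNA lower against 2 with it higher. FTL, ferritin light chain, whose message is repressed through an iron-responsive element, read 8.80, 13.97 and 12.57 in polysomal RNA, against 14.16 and 14.44 in subpolysomal RNA, with P2 far below the rest (difference -2.52 ± 1.84, SE; limma adjusted p = 0.999). Among enzymes of polyamine synthesis in that list, SRM, spermidine synthase, gave -2.27, ODC1, ornithine decarboxylase, gave -1.70, and AMD1, S-adenosylmethionine decarboxylase, gave -0.98, and these 3 were parted. ODC1 read 10.28, 9.43 and 10.44 in polysomal RNA, against 12.31 and 11.20 in subpolysomal RNA. ATF4, the stress transcription factor with inhibitory upstream reading frames, read 12.19, 13.05 and 11.78 in polysomal RNA, against 13.81 and 13.24 in subpolysomal RNA (difference -1.18; other probes -1.21 to -0.25). TFRC, the transferrin receptor, gave 0.50 with overlapping pools. The group level was lower in all 3 polysomal arrays, at -0.35, 0.04 and -0.22, against 0.41 and 0.20. The median difference of -0.22 was -0.04 without P5, -0.09 without P2, -0.42 without P3 and -0.36 without P4. In knockdown cells the median was 0.02 and the group level overlapped between the pools.

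Selenoproteins had a median of -0.04 over 21 genes, with 4 parted lower and 2 higher in polysomal RNA. SELENOW was called, and GPX4, the lipid peroxidase that guards against ferroptosis, read 8.63, 10.62 and 10.38 in polysomal RNA, against 12.08 and 12.66 in subpolysomal RNA (difference -2.50 ± 0.80, SE; limma adjusted p = 0.62), with -2.13 on its other probe. GPX1 gave -1.41 with P1 at 10.53 close to P5 at 10.52. Immediate early and AU-rich messages gave a median of -0.08 over 35 genes, and 1 of them was parted.

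Proteasome subunits read higher in polysomal RNA. Of 32 measured, 31 read higher and 1 lower, none was called, and 12 were parted with polysomal RNA higher against 0 with it lower; the median was 0.61. PSMB6, a catalytic subunit of the core particle, read 13.43, 12.88 and 13.14 in polysomal RNA, against 11.09 and 11.52 in subpolysomal RNA (difference 1.85 ± 0.29, SE; limma adjusted p = 0.126). PSMA4, an alpha-ring subunit, read 13.51, 12.66 and 12.85 in polysomal RNA, against 12.15 and 11.03 in subpolysomal RNA (difference 1.42), and its other probe gave 1.02. PSMB1 gave 1.15 and PSMA5 gave 1.06, both parted.

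PSMD1, a large scaffold subunit of the regulatory particle, read 12.14, 10.11 and 9.97 in polysomal RNA, against 9.47 and 9.18 in subpolysomal RNA (difference 1.42), with P2 far above the rest. PSMB10, an immunoproteasome subunit, was the 1 that read lower (-0.38, pools overlapping), and PSMB9 lay at background. The group level was 0.06, 0.21 and 0.32 in P2, P4 and P5, against -0.34 and -0.35 in P1 and P3. It was higher by 0.40 between P2 and P1 and by 0.62 between the mean of P4 and P5 and P3. The 16 dimmer and 16 brighter subunits had medians of 0.58 and 0.70. Brightness moved with the difference over all genes as well: the median was 0.01 over the 1647 dimmest and 0.21 over the 1647 brightest of the 8234 genes, and the part of brightness in the group medians was not tested. The 34 dimmer and 34 brighter ribosomal proteins had medians of -0.36 and -0.38.

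**Figure D4:**
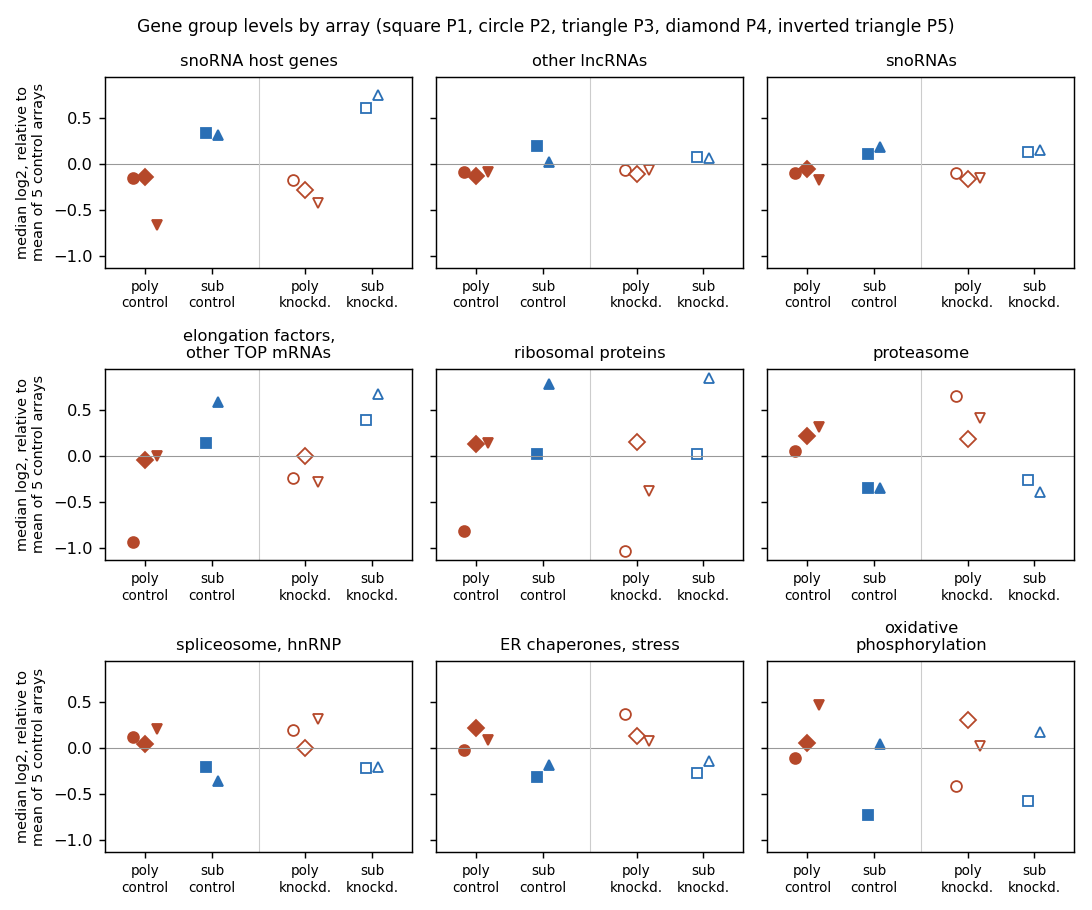
Level of 9 gene groups on each array, as the median over genes of the log2 value minus the gene's mean over the 5 control arrays (filled, control cells; open, ATXN2 knockdown cells; red, polysomal; blue, subpolysomal). The polysomal arrays stand above the subpolysomal ones for proteasome, spliceosome and ER groups and below them for snoRNA host genes and for the 18 brighter snoRNAs, in both sets of cells, while the pools overlap for ribosomal proteins and oxidative phosphorylation.

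Spliceosome and hnRNP proteins read higher as a group: of 49 measured, 36 read higher and 13 lower, 11 were parted with polysomal RNA higher against 0 with it lower, and the median was 0.40, or 0.21 with the median of each gene's probes and 0.21 without P3, P4 and P5. SRRT, described above, was its called member. HNRNPAB, an RNA-binding protein of the hnRNP A/B family, read 13.36, 12.72 and 13.42 in polysomal RNA, against 12.41 and 11.44 in subpolysomal RNA (difference 1.24, other probes 1.12 to 1.28). SNRPB2, a U2 snRNP protein, gave 0.98, and SNRPC, a U1 snRNP protein, gave 1.25, with 0.62 and 0.54 on their other probes. HNRNPA2B1 gave 1.71 on its brightest probe but -0.69 to -0.01 on its others, so its direction depended on the probe. The 4 lowest members were SR proteins, which bind exonic splicing enhancers: SRSF6, SRSF11, SRSF2 and SRSF1 gave -0.68, -0.44, -0.34 and -0.32, each with overlapping pools.

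Messages of the secretory pathway were mostly higher in polysomal RNA. Of 39 endoplasmic reticulum chaperone and stress genes, 27 read higher and 12 lower, 9 were parted higher and 1 lower, and the median was 0.23 (0.42 without P3). DNAJB11, a cochaperone of BiP, read 13.09, 11.09 and 11.05 in polysomal RNA, against 9.89 and 10.20 in subpolysomal RNA (difference 1.70). CANX and CALR, the lectin chaperones, gave 0.84 and 0.74, and SRPRA, a subunit of the signal recognition particle receptor, gave 0.98, all parted, although the other probe of CANX gave 0.16. SEC11A, a catalytic subunit of signal peptidase, went the other way at -1.14 with 10.49, 11.25 and 11.07 in polysomal RNA, against 12.23 and 11.92 in subpolysomal RNA. Of 34 lysosomal genes, 25 read higher and 9 lower, 7 were parted higher and 1 lower. LAMP2, a lysosomal membrane protein, gave 1.43 (0.03 to 1.12 on its other probes), and PSAP, the precursor of the saposins, read 11.60, 13.35 and 12.41 in polysomal RNA, against 11.23 and 11.19 in subpolysomal RNA (difference 1.24). CTSL, a lysosomal cysteine protease, read 13.78, 13.67 and 12.02 in polysomal RNA, against 10.74 and 10.67 in subpolysomal RNA (difference 2.45 ± 0.51, SE; limma adjusted p = 0.269), with 0.46 to 2.49 on its other probes.

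Nuclear-encoded oxidative phosphorylation genes had a median of 0.46 that depended on P1. Of 71 measured, 53 read higher and 18 lower, and 15 were parted with polysomal RNA higher against 3 with it lower. The group level was -0.11, 0.06 and 0.47 in P2, P4 and P5, against -0.72 and 0.04 in P1 and P3, with overlap, and without P1 the median difference was -0.021, without P3 it was 0.91, and without P5 or without P1 and P2 it was 0.19 or 0.13. COX6C, a subunit of cytochrome c oxidase, read 14.19, 13.08 and 13.34 in polysomal RNA, against 12.57 and 12.39 in subpolysomal RNA (difference 1.06), and SDHA, the flavoprotein of complex II, gave 1.49, with 0.24 on its other probe. NDUFS5, of complex I, read 13.03, 12.67 and 13.28 in polysomal RNA, against 10.88 and 12.50 in subpolysomal RNA, with P1 alone far below. Of 78 mitochondrial ribosomal proteins, 49 read higher and 29 lower, with 13 parted higher and 2 lower and a median of 0.22 (0.01 without P5), against -0.37 for the cytosolic ones; the difference between the 2 groups was not tested. The list of mitochondrially encoded genes had 0 of 28 members among the genes named in the annotation used here, in which many probes have no name.

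Cell cycle messages read higher: 32 of 38 G2 and M phase genes (8 parted higher, 0 lower; median 0.36, or 0.14 without P2) and 34 of 44 S phase genes (9 parted higher, 2 lower; median 0.23, or 0.13 without P5). BUB3, of the spindle checkpoint, read 12.26, 11.32 and 11.61 in polysomal RNA, against 10.72 and 10.77 in subpolysomal RNA (difference 0.98; other probes 0.08 to 0.53). POLA2, a subunit of DNA polymerase alpha, gave 1.31 and FEN1, the flap endonuclease, gave 1.92, with 10.69 for FEN1 on P4 against 10.43 on P1 and a difference of 0.60 on its other probe. Actin, tubulin and cytoskeleton genes had 26 of 37 higher, 10 parted higher and 1 lower (median 0.37, or 0.07 to 0.47 with 1 array left out). Among them, MYL6, the myosin essential light chain, read 13.40, 13.51 and 13.77 in polysomal RNA, against 12.58 and 12.30 in subpolysomal RNA (difference 1.12), and its other probe gave 1.11. ARPC1A, of the Arp2/3 complex, gave -1.50, with 11.35 on P1 and 9.00 on P3.

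The remaining lists had few parted members. Of 40 replication-dependent histone genes, whose messages lack a poly(A) tail and whose probes can cross-read near-identical copies, 21 read lower and 19 higher. The chaperonin and prefoldin, heat shock, tRNA synthetase, ATF4 response, glycolysis and cholesterol synthesis lists had medians of 0.09, 0.38, 0.15, 0.06, 0.20 and -0.03, and at most 2 members of each were parted in a direction. With 1 array left out their medians ran between -0.02 and 0.26, 0.01 and 0.50, -0.15 and 0.43, -0.11 and 0.20, -0.16 and 0.56, and -0.39 and 0.59, in the same order, so that leaving out an array turned the sign for each but the heat shock list, and the scaling also turned it for cholesterol synthesis (0.01 under both other scalings). The autophagy and mTOR list had 3 parted in each direction, with MLST8, a subunit of both mTOR complexes, at -1.60 and RRAGD, a Rag GTPase, at -1.76. The list of ATXN2, deadenylases, P-body and stress granule proteins had a median of 0.07 over 40 genes, with 2 parted higher and 5 lower. PABPC4, a poly(A)-binding protein, gave -2.54, PABPC1, described above, gave -1.77, and CNOT7 gave -1.16, all parted lower, while G3BP2, a stress granule scaffold, was parted higher at 1.00 (0.34 to 0.38 on its other probes). Nucleolar ribosome assembly factors had 22 of 33 higher and 6 parted higher against 0 lower; DKC1, the pseudouridine synthase of H/ACA particles, gave 0.77 and GAR1, its partner, gave 1.53 (0.37 to 1.25 on its other probes).

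Meg01 cells are labelled megakaryocyte, and their markers were partly present. Of 26 megakaryocyte and platelet markers 20 were measured; ITGA2B, the integrin alpha IIb, read 8.6 in both pools, while PF4 and VWF were not among the kept probes and ITGB3 lay near background. NFE2, a transcription factor of platelet formation, read 12.29, 12.29 and 12.48 in polysomal RNA, against 11.74 and 11.01 in subpolysomal RNA (difference 0.98). The fetal globins HBG1 and HBG2, near-identical genes whose probes may cross-read, stood near the top of the scale at 14.37 to 14.48 and 14.41 to 14.44 in polysomal RNA, against 14.06 to 14.18 and 14.15 to 14.19 in subpolysomal RNA. Of 17 globin and haem synthesis genes 14 read higher and 3 were parted, all higher, among them HBE1, embryonic globin, at 1.63. Of 12 erythroid markers 11 read higher in polysomal RNA and 3 were parted, the globins HBE1, HBG1 and HBG2 just given. Of 8 monocyte and granulocyte markers 7 read higher and 0 were parted, and of 7 mast cell and basophil markers 6 read higher and 0 were parted. The lymphoid marker list had 1 of 14 above background on all 5 control arrays.

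The next genes were named apart from the groups. They were chosen by size among genes parted the same way in both hairpins, by p, or, for ATXN2, as the target of sh95. YBX1, a cold-shock domain protein that binds messenger RNA, read 9.65, 11.05 and 11.18 in polysomal RNA, against 13.19 and 13.40 in subpolysomal RNA (difference -2.67 ± 0.56, SE; limma adjusted p = 0.273). YBX1 was named by size among the parted genes, as were CMIP at 2.27, ACLY, the cytosolic source of acetyl-CoA, at 1.90 (other probe 0.34), and PDHA1, the E1 subunit of pyruvate dehydrogenase, at 1.87. Of the genes nearest to a call with polysomal RNA higher, MDH2, mitochondrial malate dehydrogenase, read 13.34, 13.54 and 13.50 in polysomal RNA, against 12.88 and 12.93 in subpolysomal RNA (difference 0.56 ± 0.07, SE; limma adjusted p = 0.0829). HNRNPUL2, GSTO1, TMEM59 and CPSF1 gave 1.52, 1.36, 1.21 and 0.48. ATXN2, the target of sh95, read 9.18, 10.77 and 9.67 in polysomal RNA of control cells, against 9.31 and 9.87 in subpolysomal RNA, with overlap (difference 0.28 ± 0.43, SE; limma adjusted p = 0.999).

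The same contrast in cells carrying sh95 was set beside that of control cells; no array is shared, but the P numbers are. There limma called 43 probes, of which 7 rose (0.026%) and 36 fell (0.134%). All 32 probes called in control cells also had their knockdown arrays parted in the same direction. The knockdown arrays entered the spread behind these calls and share the P numbers, so this count is no independent replication. SELENOW gave -1.84 in knockdown cells and -2.15 in control cells, OIP5-AS1 gave -2.13 and -1.93, and LRP5 gave 1.23 and 1.00. Of the 1590 genes above background that were parted in control cells, 917 were parted the same way in knockdown cells (542 with polysomal RNA higher and 375 lower) and 10 the opposite way. Over all 8234 genes, 16.5% were parted higher and 8.6% lower in knockdown cells. Over the 8234 genes the differences of the 2 sets correlated at r = 0.78 (rho 0.73), a value across genes, which are not independent replicates, and which the shared P numbers can raise.

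The interaction between hairpin and pool, tested by limma over all kept probes, gave 0 calls (315 probes at an unadjusted p under 0.05), so no gene's pool difference was shown to depend on the hairpin. The group medians in knockdown cells and in control cells were 0.79 and 0.61 for the proteasome, -1.19 and -1.19 for snoRNA host genes, -0.81 and -0.70 for elongation factors and other TOP messages, and -0.86 and -0.37 for ribosomal proteins. For oxidative phosphorylation they were 0.14 in knockdown cells and 0.46 in control cells, and for tRNA synthetases 0.79 and 0.15. These differences between the hairpins were not tested for the groups.

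**Figure D5:**
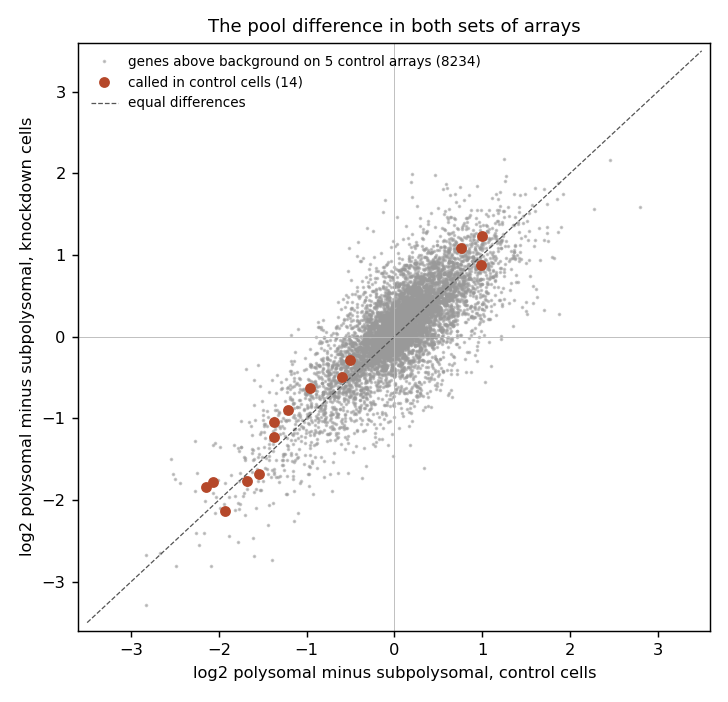
Log2 difference, polysomal minus subpolysomal, in knockdown cells (vertical) against control cells (horizontal) for the 8234 genes above background on all 5 control arrays (grey) and the 14 of them called in control cells (red); the dashed line marks equal values. The red points lie near the dashed line on both sides of 0, and the cloud follows it with r = 0.78.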

How the data were processed

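Meg01 RNA from 10 arrays was used: 3 polysomal and 2 subpolysomal arrays of each hairpin, grouped by title. Per the labels, biotin-labelled cRNA was hybridised to Illumina beadchips; R 2.15 is named in the submitters' processing notes. The deposited values are linear intensities, 1 column per array, with the authors' background correction and normalization not given in the sources used here. A second deposited table, with 20 value columns whose names match no label, was not used here. The series text counts 8 fractions in the polysomal pool, while the labels' range of 9 to 17 makes 9.

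Intensities were turned into log2, quantile-normalized over the 10 arrays, and kept where a probe exceeded the 0.05 upper tail of the array's background, modelled from values below the mode, on at least 2 arrays. Limma 3.58.1 in R 4.3.3 (lmFit, eBayes; 4 groups; 2-sided) tested polysomal minus subpolysomal RNA in control cells and its interaction with hairpin, with Benjamini-Hochberg adjustment at 0.05. P-values measure the spread between these arrays, whose small number limits precision; control and knockdown arrays of 1 P number deviate together (correlation 0.542 as a random block), so they may be too small. The code of the fit was run on simulated arrays with known shifts. Their noise was independent and smaller than the fitted spread, so the run cannot show the rate of false calls in these arrays. A gene is its brightest kept probe by mean over the 10 arrays. Platform symbols (30113 probes with 1, 8 with several, 17202 with none) were updated by gene ID, 30074 of them matched to RefSeq; start sequences and types are RefSeq's, GRCh38.p14.

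The members and lists were chosen with earlier results of these data known, and the start class after values were seen. Named genes were the called ones, up to 12 per direction by size and filled to 8 by unadjusted p. The 5 highest and 5 lowest parted in both hairpins were added, as was ATXN2. Up to 4 of each list and type were also named, called members first and then the largest differences among parted members. These examples were thus chosen for being called or parted and do not show what is typical of their group. Others named, such as TNFSF12, were chosen after values were seen. Alternatives were other normalizations, filters, priors, probe rules, left-out arrays and P number as a random replicate block. Medians by protein length were not run, since no protein table was used here.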

Additional observations from a re-analysis of the deposited data

How the results depend on the processing

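No paired analysis was possible because no P number occurs in both pools; with P number as a random replicate block, limma called 15 probes, 2 higher and 13 lower in polysomal RNA, against 32 (3 and 29) without it. The number called, with its higher and lower parts, was 7 (0 and 7) with probes above background on all 5 control arrays, 17 (2 and 15) with no filter, 0 with the 5 control arrays alone and 0 with a trended robust prior (1186 and 1287 probes at an unadjusted p under 0.05). It was 22 on log2 values as deposited and 24 with median centring, each with 1 higher. It ran between 1 and 4 with 1 array left out (0 to 1 higher, 1 to 3 lower), was 1 (0 and 1) without P1 and P2, and was 0 without P3, P4 and P5 (1571 probes at an unadjusted p under 0.05); these last 2 were chosen after seeing the data. The interaction had 0 calls under each of these settings in which it was run.

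Of 164 values of the 11 leading group medians under the alternatives, 162 kept their sign. The exceptions were ribosomal proteins without P2 (0.027) and oxidative phosphorylation without P1 (-0.021). With no filter, the 5 control arrays alone, the trended robust prior or the random block, a gene's difference equals that of the main fit. Values under these settings could not change sign, so the count overstates the stability of the medians. The same holds for the counts of other medians and of named genes below. With 1 array left out the medians ran between -1.13 and 0.027 for ribosomal proteins, -1.10 and -0.24 for TOP messages, -1.55 and -0.62 for snoRNA host genes, -0.38 and -0.16 for the noncoding RNA list, 0.53 and 0.67 for the proteasome, 0.18 and 0.42 for the endoplasmic reticulum, -0.021 and 0.91 for oxidative phosphorylation and 0.27 and 0.44 for splicing. For the lncRNA, snoRNA and snRNA types, taken over the 73, 18 and 2 genes above background on all 5 control arrays (medians -0.13, -0.38 and -1.09), they ran between -0.13 and -0.063, -0.38 and -0.18, and -1.42 and -0.77. On log2 values as deposited and with median centring the noncoding RNA list moved to -0.23 in both and the proteasome to 0.78 in both. The median of a gene's probes gave -0.23 for the noncoding RNA list and 0.21 for splicing, and the filter on all 5 control arrays gave -1.72 for host genes. Without P3, P4 and P5 the values were -0.43 for host genes, 0.40 for the proteasome, 0.21 for splicing, and -0.10, -0.22 and -0.71 for the lncRNA, snoRNA and snRNA types; without P1 and P2 they were -0.15 for the noncoding RNA list, 0.50 for splicing and -1.44 for snRNA. Of 449 values of the 30 other group and type medians, 38 changed sign, in 14 of the medians. The cholesterol synthesis median changed sign with scaling (0.01 on values as deposited and with median centring) and without P3 (0.59). With 1 array left out, others that changed sign ran between -0.017 and 0.17 for initiation factors, -0.03 and 0.33 for globins, -0.03 and 0.11 for the ATXN2 and stress granule list, -0.05 and 0.02 for selenoproteins and -0.08 and 0.05 for histones. Of 1905 values for 137 named genes, 1903 kept their direction. This count was largely fixed by the naming rule. A gene whose control arrays are parted keeps its direction when arrays are left out, and list members were named from called or parted genes. ATXN2 reversed without polysomal P4 (-0.17, with a range up to 0.63 over single arrays left out) and without P3, P4 and P5 (-0.14). The causes were not tested. Medians by protein length were not run. Dim probes near the floor limit what the array shows of noncoding RNA.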

Other observations

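Symbol stems shared by at least 8 genes above background on all 5 control arrays were listed after the values were seen, as a description with no test. Beside the stems already covered by lists, the EXOSC genes of the RNA exosome, which degrades and trims RNA 3′ to 5′, read higher in polysomal RNA in 10 of 10 cases (3 parted; median 0.46, and 0.38 in knockdown cells). The EMC genes of the membrane insertase of the endoplasmic reticulum had a median of 0.51 (6 of 9 higher, 4 parted), but 0.16 in knockdown cells. The DHX genes of DEAH-box helicases had 0.37 (12 of 14 higher, 5 parted; 0.57 in knockdown cells), and the ALDH genes of aldehyde dehydrogenases had 0.32 (11 of 11 higher, 3 parted; 0.31 in knockdown cells). The LSM genes, whose small ring proteins bind U6 RNA and decapping substrates, had a median of -0.72 (9 of 11 lower, 3 parted; -0.66 in knockdown cells). The stem BCL, which joins genes of unlike function, had -0.38 (8 of 10 lower, 2 parted lower and 1 higher; -0.19 in knockdown cells).

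The pseudogene symbols FTH1P3, RPL13P5 and HNRNPA1P10 gave differences of -2.26, -1.70 and -1.46 on probes that may also read their parent messages.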
